A study of Mus musculus with 8 samples.

Results

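The salt-inducible kinase genes (*Sik1*, *Sik2* and *Sik3*) and the genes of the CREB-regulated transcription coactivators (*Crtc1*, *Crtc2* and *Crtc3*) were examined in bulk RNA-seq of cultured hippocampal neurons. The members were set by name, as both complete gene families, and make up 6 of the 45706 genes in the deposited table. All 6 were found, and their 34 annotated transcripts were among the 109617 in the transcript tables. The neurons came from C57/Bl6 wild-type (*Wt*) mouse embryos at embryonic day 18 (E18) and were harvested at 12 to 14 days in vitro. They received 1 µM melanin-concentrating hormone (MCH), a hypothalamic peptide, or the control vehicle (H2O) for 4 h, with 4 wells per treatment. The 4 wells of a treatment came from 2 cultures, 2 wells from each, so the wells are not 4 separate cultures, and which culture gave which well is not given in the sources used here. Every sample is also tagged in the labels with an Alzheimer's disease model, although their genotype entry is wild type in both groups. The comparison addresses which transcripts differ between MCH-treated and vehicle-treated neurons.

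The salt-inducible kinases are serine/threonine kinases of the AMPK-related family that are switched on by the upstream kinase LKB1. They phosphorylate the Crtc proteins, which are then held in the cytoplasm by 14-3-3 proteins. When cAMP or calcium rises, protein kinase A (PKA) inhibits the salt-inducible kinases and the phosphatase calcineurin dephosphorylates the coactivators, so that Crtc enters the nucleus and boosts transcription by CREB. *Sik1* is itself a CREB target and an activity-regulated gene in neurons, while *Crtc1* is the coactivator best known in hippocampal plasticity.

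The site of contact between the families is shown first, because it is what places the 6 genes in 1 pathway. The stretch of each Crtc coding sequence that holds the conserved serine phosphorylated by the salt-inducible kinases is printed below, read 5′ to 3′ from GENCODE vM21 transcripts on GRCm38. Each is 48 bases long and starts at codon 144 of *Crtc1*-201, codon 164 of *Crtc2*-201 and codon 155 of *Crtc3*-201, and capitals mark the 25 bases that are identical in all 3 genes.
Crtc1: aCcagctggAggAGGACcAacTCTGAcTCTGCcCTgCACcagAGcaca
Crtc2: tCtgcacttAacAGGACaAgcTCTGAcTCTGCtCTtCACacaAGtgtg
Crtc3: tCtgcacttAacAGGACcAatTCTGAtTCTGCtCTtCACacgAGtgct

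The kinases were compared over the stretch that opens the activation segment of the kinase domain, the loop whose phosphorylation by LKB1 switches the enzymes on. These 48 bases start at codon 161 of *Sik1*-201, codon 154 of *Sik2*-205 and codon 200 of *Sik3*-204, and capitals mark the 30 bases shared by all 3 genes.
Sik1: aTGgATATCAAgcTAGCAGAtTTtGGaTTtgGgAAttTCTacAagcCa
Sik2: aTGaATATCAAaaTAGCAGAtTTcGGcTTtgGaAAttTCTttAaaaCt
Sik3: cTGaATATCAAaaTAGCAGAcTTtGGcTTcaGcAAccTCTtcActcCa

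Within these windows *Sik2* and *Sik3* share an exact run of 19 bases and *Crtc2* and *Crtc3* one of 17 bases. How long such runs are bears on how far reads could be assigned to 1 gene. Across the full coding sequences, aligned pairs within a family were identical at 39.2% (*Sik1* and *Sik3*) to 54.5% (*Crtc1* and *Crtc2*) of columns. The longest exact run shared by a pair was 26 bases, in *Crtc1* and *Crtc2*, and no pair shared a word of 31 bases on either strand.

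Library totals ranged from 26083936 to 28240903 estimated counts in the vehicle-treated wells and from 26806683 to 31844861 in the MCH-treated wells. All 6 members passed the filter on low counts, with 390 to 5542 counts per well. Once each gene's treatment means were removed, the leading principal component took 59.8% of the variance. It set replicates 1 and 2 apart from replicates 3 and 4 in both treatments, called sides here. Of the genes tested, 34.7% differed between the sides, a description only, since the sides were read from the same counts. Neuron markers summed to 7120 to 7860 counts per 1000000 (CPM) with vehicle and 7132 to 8004 with MCH, and astrocyte markers to 348 to 1341 and 290 to 1457. The ranges of all 6 marker lists overlapped between the treatments, and none of their genes passed the test without a block. With the replicate block 1 inhibitory neuron marker passed, beside 3.98% of all genes tested. Microglia markers summed to 4.602 to 9.51 CPM with vehicle and 5.21 to 9.51 CPM with MCH, and *Mog*, of the oligodendrocyte list, was at 0. In these bulk wells, fewer cells of a type and less RNA per cell cannot be told apart.

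*Sik3* was the most abundant salt-inducible kinase transcript per length and *Crtc1* the most abundant coactivator. Levels of different genes are compared in transcripts per 1000000 (TPM), which the authors scaled for length. With vehicle, *Sik3* stood at 86.8 ± 4.32 TPM and *Crtc1* at 50.5 ± 2.07 TPM (mean ± SD, n = 4 wells). The 4 vehicle-treated wells of *Sik3* lay between 82.3 and 92.5 TPM, above those of *Crtc1* at 47.9 to 52.8 TPM, which in turn lay above all other members. *Sik2* followed at 20.2 ± 1.55 TPM (range 18.8 to 21.8 TPM), without overlap with the genes below it. *Sik1* (13.9 to 16.3 TPM), *Crtc2* (11.7 to 17.1 TPM) and *Crtc3* (9.16 to 13.3 TPM) came last, and in this order each overlapped with its neighbour in range.

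With MCH, the same order of means held for the upper part. *Sik3* had 79.0 ± 5.81 TPM, *Crtc1* 57.1 ± 3.69 TPM and *Sik2* 18.4 ± 3.33 TPM (n = 4 wells). Unlike with vehicle, the wells of *Sik2*, at 15.1 to 22.9 TPM, overlapped with those of *Crtc2*. The lower part differed, since *Sik1* at 10.1 ± 0.501 TPM came below *Crtc2* at 14.8 ± 1.97 TPM. The MCH-treated wells of *Sik1* reached 9.55 to 10.6 TPM and did not overlap with those of *Crtc2* at 12.5 to 17.1 TPM, whereas they lay within the range of *Crtc3* at 8.27 to 13.0 TPM. Of the summed TPM of the 3 kinases, *Sik1* made up 12.6 ± 0.611% with vehicle and 9.45 ± 0.708% with MCH.

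*Sik1* was the member that differed between the treatments without a block and in all 7 alternatives that kept the 8 wells. *Sik1* (ENSMUSG00000024042) lies on chromosome 17 of GRCm38 from 31844250 to 31855804 on the minus strand. The 4 vehicle-treated wells, replicates 1 to 4, had 41.4, 39.8, 34.8 and 39.5 CPM, and the 4 MCH-treated wells 26.4, 23.8, 26.1 and 24.4 CPM. The treatments did not overlap, and the highest MCH-treated well was far under the lowest vehicle-treated one, replicate 3. The mean fell from 38.9 ± 2.86 to 25.2 ± 1.23 CPM (SD, n = 4). The log2 fold change was −0.63 (standard error 0.06, 95% interval −0.77 to −0.48, BH-adjusted *P* = 0.0078, where BH stands for Benjamini–Hochberg over the 14962 genes in edgeR's quasi-likelihood F test). This corresponds to a change of −35.2% and was the 5th smallest *P* value of all genes tested.

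The difference in *Sik1* was seen on both sides. Mean log2 CPM differed by −0.70 within replicates 1 and 2 and by −0.55 within replicates 3 and 4. *Sik1* itself did not pass the test for a difference between the sides (log2 difference −0.066, edgeR BH-adjusted *P* = 0.384). With 1 well left out at a time, 7 of 8 fits called *Sik1*, and the exception, without vehicle replicate 4, gave a log2 fold change of the same direction with a BH-adjusted *P* of 0.05003 by edgeR. A two-sided exact permutation test over the 70 assignments of wells gave *P* = 0.0286, the smallest that 4 wells against 4 allow. It exchanged the wells freely and kept neither the sides nor the replicate numbers, so it takes no account of that structure.

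*Sik1* was the only member called without a block, 1 of 6, where 0.234% of all genes tested were called (0.207% lower with MCH). The number of members called rose to 2 with the replicate number as a block (*Sik1* and *Sik3*, against 3.98% of all genes, 2.25% lower with MCH) and to 3 with the side as a block (*Sik1*, *Sik2* and *Sik3*, against 4.46%, 2.61% lower). All members called in any of these fits were kinases and were lower with MCH.

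**Figure D1:**
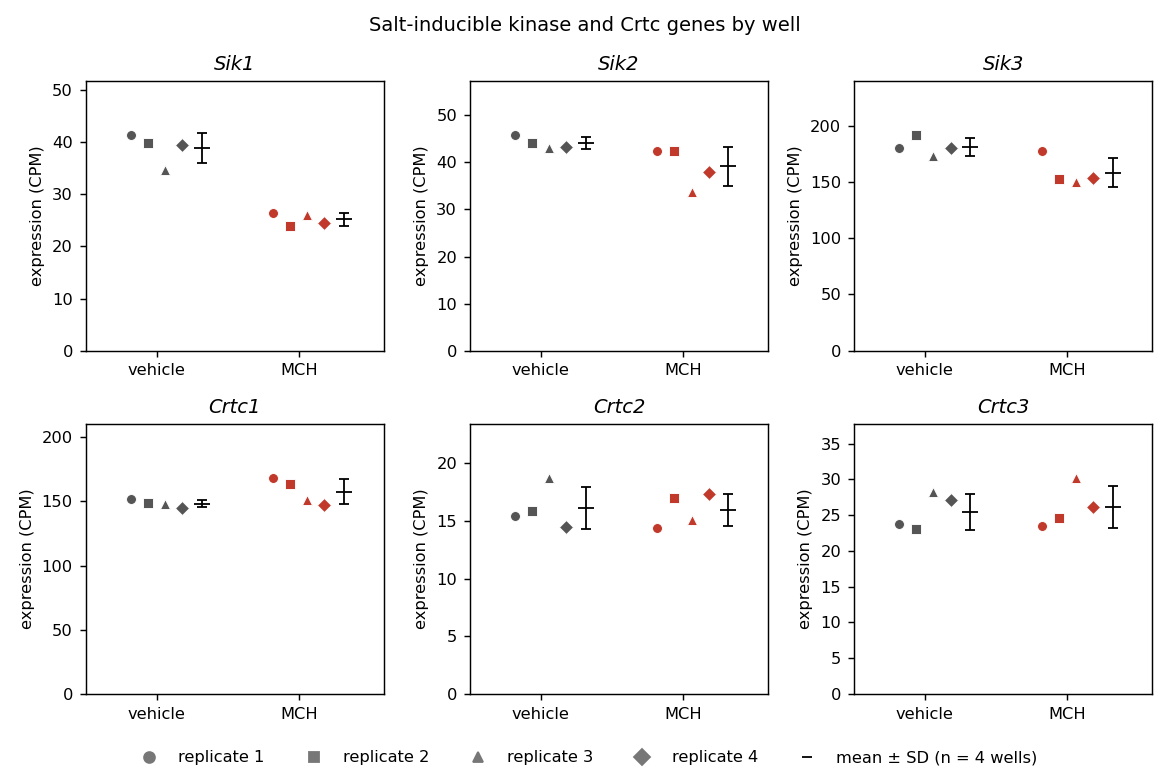
Expression of the 6 genes in each well, in CPM on axes that start at 0, with grey symbols for vehicle, red symbols for MCH, 1 symbol shape per replicate number, and the mean ± SD (n = 4 wells) beside them. The MCH-treated wells of *Sik1* sit at 23.8 to 26.4 CPM, all under the vehicle-treated wells at 34.8 to 41.4 CPM, whereas the wells of the 3 *Crtc* genes overlap.

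*Sik2*, the kinase best known from work on adipocytes and neuronal survival, had slightly lower values with MCH, and the call depended on the design. *Sik2* (ENSMUSG00000037112, chromosome 9 of GRCm38, 50892801 to 51009073, minus strand) had 45.8, 44.1, 43.0 and 43.2 CPM in vehicle replicates 1 to 4, and 42.3, 42.4, 33.8 and 38.0 CPM in MCH replicates 1 to 4. In CPM the wells did not overlap. MCH replicates 1 and 2 came within 1 CPM of the lowest vehicle-treated wells, and replicates 3 and 4 were further down. The means were 44.0 ± 1.26 and 39.1 ± 4.10 CPM, and the log2 fold change was −0.17 (standard error 0.07, 95% interval −0.33 to −0.01, edgeR BH-adjusted *P* = 0.559). Without MCH replicate 3 the log2 fold change was −0.099 (edgeR BH-adjusted *P* = 0.82). With the average transcript length as an offset, it was −0.15 (edgeR BH-adjusted *P* = 0.889). Mean log2 CPM differed by −0.085 within replicates 1 and 2 and by −0.27 within replicates 3 and 4. With the side as a block *Sik2* passed (edgeR BH-adjusted *P* = 0.0447), and with the replicate block it did not (BH-adjusted *P* = 0.058). In CPM, the treatments did not overlap in 6.03% of all genes tested (2.96% lower with MCH), and among the members in *Sik1* and *Sik2*, both lower. In TPM the wells of *Sik2* did overlap, at 18.8 to 21.8 TPM with vehicle and 15.1 to 22.9 TPM with MCH. The highest value was that of MCH replicate 1.

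*Sik2* shares 1429 exon bases with *Ppp2r1b*, a phosphatase 2A scaffold gene on the opposite strand. The library kit marks strand, but the strand setting of the quantification is not given in the sources used here. *Ppp2r1b* stood at 18.8 ± 0.93 CPM in vehicle-treated and 19.4 ± 0.786 CPM in MCH-treated wells (SD, n = 4), with a log2 fold change of 0.046 (edgeR BH-adjusted *P* = 0.925).

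*Sik3*, a kinase with a known role in sleep need, had a difference of similar size. *Sik3* (ENSMUSG00000034135, chromosome 9 of GRCm38, 46012820 to 46224194, plus strand) had 180, 192, 173 and 180 CPM in vehicle replicates 1 to 4, and 177, 153, 150 and 153 CPM in MCH replicates 1 to 4. MCH replicate 1 lay within the range of the vehicle-treated wells and the other 3 MCH-treated wells lay below it. The means were 181 ± 7.86 and 158 ± 12.6 CPM, and the log2 fold change was −0.19 (standard error 0.06, 95% interval −0.32 to −0.06, edgeR BH-adjusted *P* = 0.348).

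Both blocks changed the call for *Sik3* and not its size. With the replicate block the log2 fold change was −0.20 (edgeR BH-adjusted *P* = 0.0184) and with the side as a block −0.19 (edgeR BH-adjusted *P* = 0.0117). Without MCH replicate 1 and with no block, it was −0.25 (edgeR BH-adjusted *P* = 0.0951). Within replicates 1 and 2 mean log2 CPM differed by −0.18, and within replicates 3 and 4 by −0.22. The exact permutation test over wells gave *P* = 0.0571 for *Sik3* and 0.0286 for *Sik2*.

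None of the 3 coactivator genes passed the test in any design. *Crtc1* (ENSMUSG00000003575, chromosome 8 of GRCm38, 70382355 to 70439579, minus strand) had 152, 148, 148 and 145 CPM in the vehicle-treated wells and 168, 164, 151 and 147 CPM in the MCH-treated wells. MCH replicates 1 and 2 lay above all vehicle-treated wells, and replicates 3 and 4 among them. The log2 fold change was 0.088 (standard error 0.047, 95% interval −0.017 to 0.19, edgeR BH-adjusted *P* = 0.678), and with the replicate block the BH-adjusted *P* was 0.163. With the average transcript length as an offset it was 0.16 (edgeR BH-adjusted *P* = 0.603). The 95% interval spanned 0 without a block. It lay above 0 with the replicate block (0.017 to 0.155) and with the side as a block (0.021 to 0.151, edgeR BH-adjusted *P* = 0.128). Each of these intervals excludes a fall of the size seen in *Sik1*.

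*Crtc2*, the coactivator studied most in liver, and *Crtc3* were low in these neurons. *Crtc2* (ENSMUSG00000027936, chromosome 3 of GRCm38, 90254163 to 90264125, plus strand) had 15.5, 15.9, 18.7 and 14.5 CPM with vehicle and 14.4, 17.0, 15.05 and 17.3 CPM with MCH. The wells were interleaved, and the log2 fold change was −0.019 (standard error 0.09, 95% interval −0.23 to 0.19). *Crtc3* (ENSMUSG00000030527, chromosome 7 of GRCm38, 80586627 to 80688877, minus strand) had 23.7, 23.05, 28.2 and 27.1 CPM with vehicle and 23.5, 24.6, 30.2 and 26.1 CPM with MCH.

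The wells of *Crtc3* were ordered by side and not by treatment. Replicates 3 and 4 were higher than replicates 1 and 2 in both treatments, by 0.24 on the log2 scale (edgeR BH-adjusted *P* = 0.00192). Between the treatments its log2 fold change was 0.033 (standard error 0.09, 95% interval −0.18 to 0.24). For MCH against vehicle, edgeR gave BH-adjusted *P* values of 1.00 for *Crtc2* and 0.996 for *Crtc3*. *Sik2* and *Crtc1* also differed between the sides, in the other direction. For replicates 3 and 4 against 1 and 2, the log2 differences were −0.15 (edgeR BH-adjusted *P* = 0.0225) and −0.095 (edgeR BH-adjusted *P* = 0.0223). The sides were read from the same counts, so the *P* values between sides are a description.

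**Figure D2:**
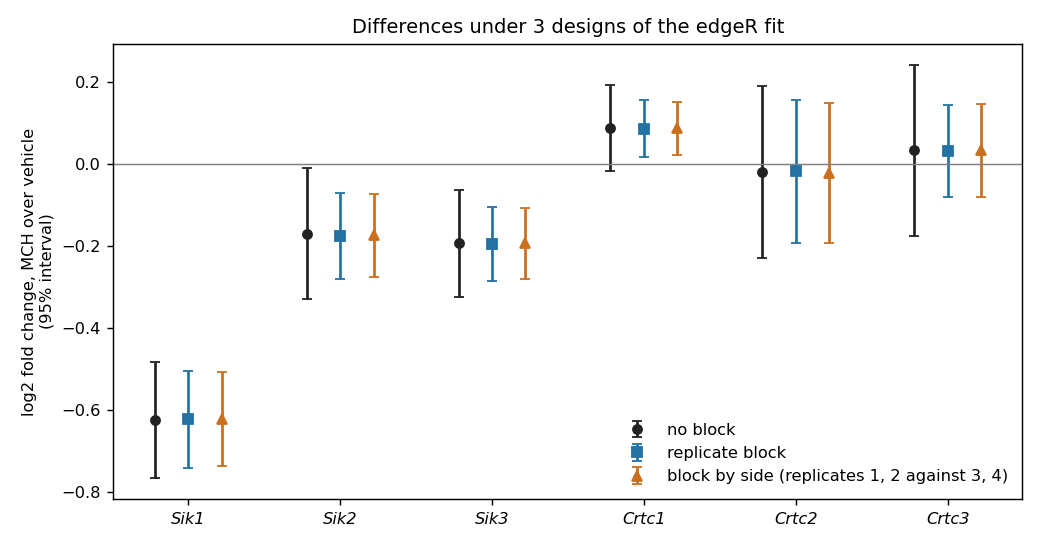
Log2 fold change of MCH over vehicle with its 95% interval for the 6 genes, from edgeR without a block (black circles), with the replicate number as a block (blue squares) and with the side as a block (orange triangles). *Sik1* lies near −0.62 in all 3 designs, *Sik2* and *Sik3* between −0.20 and −0.17, and the intervals of *Crtc2* and *Crtc3* span 0 in each. The interval of *Crtc1* spans 0 without a block and lies above 0 with either block.

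The size of the *Sik1* difference was next set against each other member within the same well, since a ratio inside a well does not depend on the library size. The log2 ratio of *Sik1* to *Sik3* was −2.12, −2.27, −2.31 and −2.19 in vehicle replicates 1 to 4 and −2.75, −2.68, −2.53 and −2.65 in MCH replicates 1 to 4. The ratio was lower in every MCH-treated well than in every vehicle-treated well, with a difference in means of −0.43. The log2 ratio of *Sik1* to *Sik2* was −0.15, −0.15, −0.31 and −0.13 with vehicle and −0.68, −0.83, −0.37 and −0.64 with MCH, a difference of −0.45. Replicate 3 was the closest pair there, at −0.31 with vehicle and −0.37 with MCH.

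Against the coactivators the differences were larger in size. The log2 ratio of *Sik1* to *Crtc1* differed by −0.71, to *Crtc3* by −0.66 and to *Crtc2* by −0.61. In each of the 5 ratios the treatments were fully separated (two-sided exact permutation test, *P* = 0.0286 for each, and 0.0286 after Benjamini–Hochberg adjustment over the 5 ratios, the smallest possible here). On the CPM scale, *Sik1* therefore differed from each of the other members in its change between the treatments, within these 8 wells. All 5 ratios share the *Sik1* values, so their tests are independent neither of each other nor of the *Sik1* result. The wells were exchanged freely here too, without regard to side. When the ratios were formed from TPM, the *P* value was 0.0571 by the same exact permutation test for the ratios to *Sik2*, *Crtc2* and *Crtc3*, with differences of −0.45, −0.66 and −0.67.

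**Figure D3:**
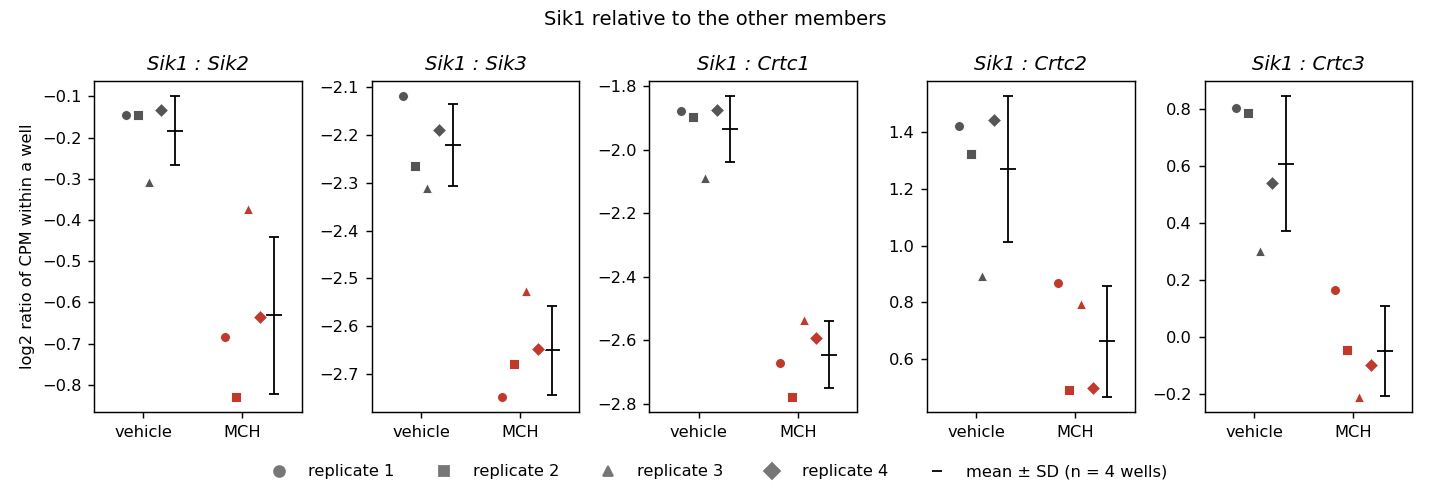
Log2 ratio of the CPM of *Sik1* to that of each other member within each well, with 1 symbol shape per replicate number and the mean ± SD (n = 4 wells) beside the wells. The vertical axes differ between panels and do not start at 0. In all 5 panels the MCH-treated wells lie under the vehicle-treated wells, and vehicle replicate 3 is the lowest vehicle-treated well in each.

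The transcripts of the members were examined in the same way. Of the 34 annotated transcripts, 18 passed the filter, 4 were at 0 in every well (3 of *Sik3* and 1 of *Crtc2*) and 12 held at least 10% of the TPM of their gene. Over the 33527 transcripts tested, 0 passed the threshold with edgeR without a block, 0 with the replicate block and 6 (0.0179%) with the side as a block, none of them a member transcript. Without adjustment, 1476 transcripts (4.4%) had a *P* value under 0.05, against 8.5% of the genes tested.

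*Sik1*-201, a protein-coding transcript of 4511 bases, was the only *Sik1* transcript in the tables and carried all reads of the gene. It had 16.3, 15.6, 13.9 and 15.6 TPM in vehicle replicates 1 to 4 and 10.6, 9.55, 10.49 and 9.86 TPM in MCH replicates 1 to 4. Its log2 fold change was the same as that of the gene, −0.63 (standard error 0.07), and its BH-adjusted *P* over all transcripts was 0.129 by edgeR.

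*Sik3* was split over 3 protein-coding transcripts. The short *Sik3*-203 (2330 bases) held 57.3% of the TPM over all wells, *Sik3*-204 (6287 bases) 28.7% and *Sik3*-202 (4180 bases) 14.1%. Counted in reads the order was different, because a long transcript gives more fragments per molecule, and *Sik3*-204 held 50.4% of the *Sik3* reads with vehicle.

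The 2 longer *Sik3* transcripts had the lower log2 fold changes. *Sik3*-204 stood at 25.4, 26.6, 24.0 and 25.9 TPM with vehicle and at 25.0, 21.1, 20.7 and 21.7 TPM with MCH, a log2 fold change in reads of −0.23 (standard error 0.07, edgeR BH-adjusted *P* = 0.981). As for the gene, MCH replicate 1 lay with the vehicle-treated wells. *Sik3*-202 had a log2 fold change of −0.33 (standard error 0.11) and *Sik3*-203 of −0.09 (standard error 0.08). None of these 3 transcripts passed the test over all transcripts. The share of *Sik3*-204 in the TPM of the gene was 29.4 ± 0.743% with vehicle and 28.0 ± 0.462% with MCH (two-sided exact permutation test, *P* = 0.0286, and 0.314 after Benjamini–Hochberg adjustment over the 11 shares compared).

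*Sik2* was carried mainly by *Sik2*-205 (4107 bases), with 60.2% of its TPM, followed by *Sik2*-201 with 21.7% and *Sik2*-206 with 11.7%. Their log2 fold changes were −0.17 (standard error 0.14), −0.11 (standard error 0.21) and −0.34 (standard error 0.18). *Sik2*-205 ranged from 10.2 to 13.3 TPM with vehicle and from 8.95 to 13.4 TPM with MCH, so that the wells overlapped widely.

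Among the coactivators, *Crtc1*-201 held 86.6% of the *Crtc1* TPM and *Crtc3*-201 83.1% of the *Crtc3* TPM. Counted in reads, they held 97.3% and 98.8% with vehicle. *Crtc2* had no such dominant form. Its coding transcript *Crtc2*-201 held 31.3% and *Crtc2*-208, annotated as a target of nonsense-mediated decay, 31.96%, and the retained-intron transcript *Crtc2*-204 held 11.1%. With vehicle they held 41.2%, 35.0% and 2.50% of the *Crtc2* reads. *Crtc2*-204 is short (652 bases) and had only 5.44 to 14.1 estimated reads per well, so its TPM share rests on few reads. The TPM of *Crtc2* thus count much RNA that is not annotated to code for the full coactivator. *Crtc2*-201 had 4.48 ± 1.16 TPM with vehicle and 4.48 ± 0.282 TPM with MCH (n = 4 wells).

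**Figure D4:**
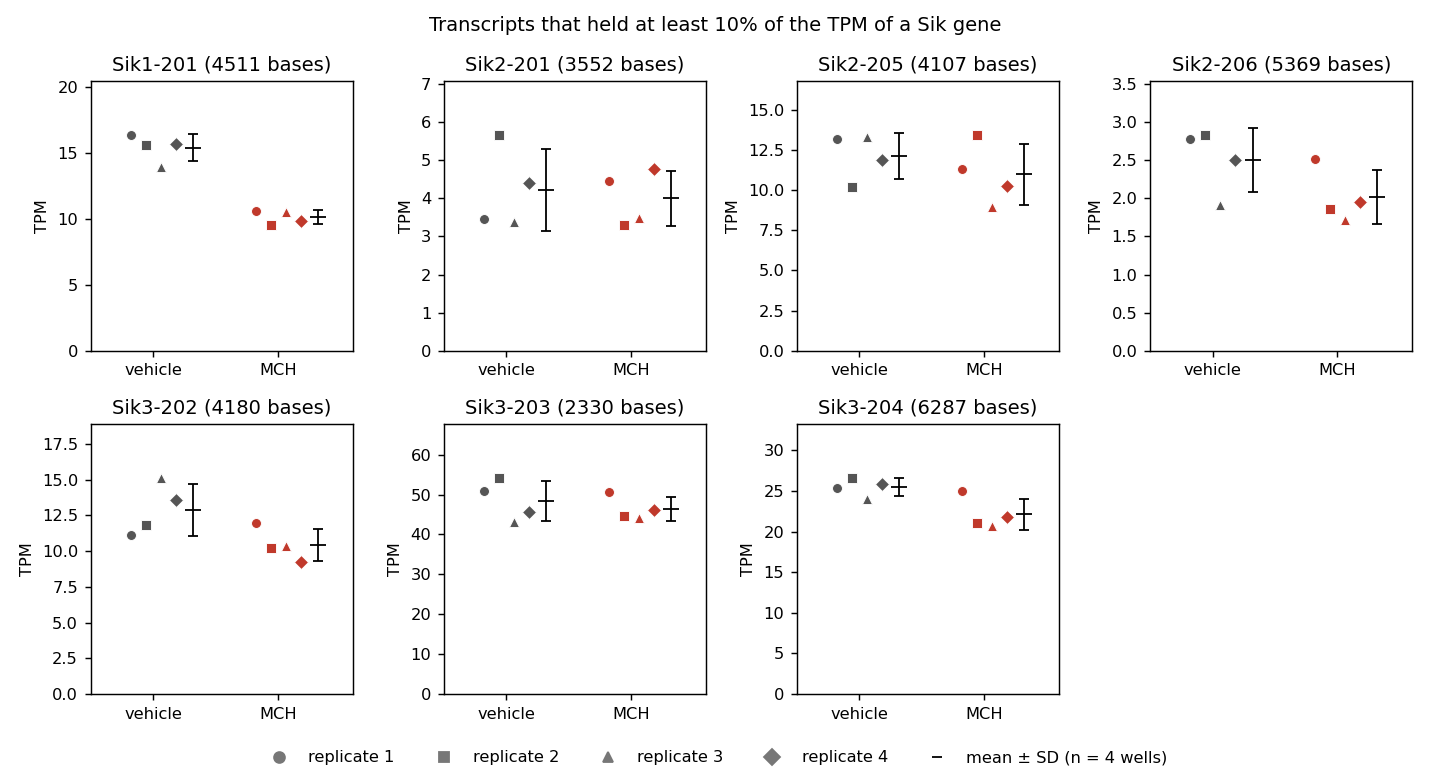
TPM per well of the 7 transcripts that held at least 10% of the TPM of a salt-inducible kinase gene, on axes that start at 0, with 1 symbol shape per replicate number and the mean ± SD (n = 4 wells). *Sik1*-201 parts the treatments (13.9 to 16.3 TPM against 9.55 to 10.6 TPM), and the wells of the 6 *Sik2* and *Sik3* transcripts overlap.

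The promoters of the members were searched for the cAMP response element, the DNA motif bound by CREB, because the kinases and coactivators act through it. The full motif searched was TGACGTCA and the short motif TGACG, each on both strands, in the 250 bases before the start in the RefSeq promoter table of GRCm38.p6. A full motif holds the short one on both strands. Of the 32851 promoters in the table, 17.8% held at least 1 short motif, 0.688% at least 3 and 1.55% the full motif. The table matched 4 of the 6 members, *Sik2*, *Sik3*, *Crtc1* and *Crtc3*. None of the 4 held the full motif, *Sik2*, *Crtc1* and *Crtc3* held no short motif, and *Sik3* held 3 short motifs, whose first bases lay 133, 116 and 57 bases before the start.

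The far 121 bases of the *Sik3* window lie in an exon of *Pafah1b2*, a gene on the opposite strand that starts nearby. The remaining 129 bases, chr9:46012691-46012819 of GRCm38 on the plus strand, are shown because they hold the nearer 2 motifs, in capitals. A match of letters is a description and does not show that the factor binds.
Sik3 promoter: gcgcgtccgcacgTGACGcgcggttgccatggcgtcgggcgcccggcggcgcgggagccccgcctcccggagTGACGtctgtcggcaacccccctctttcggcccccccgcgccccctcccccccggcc

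The other genes of the pathway were taken from 8 lists of 55 genes in all, of which 54 were tested and *Pck1*, a liver target of CREB, was too low. Upstream of the kinases, none of the 5 genes of the LKB1 complex and none of the 11 other kinases that LKB1 activates passed the test without a block. *Stk11*, which encodes LKB1 itself, was at 55.3 ± 1.31 CPM in vehicle-treated and 55.3 ± 2.04 CPM in MCH-treated wells (log2 fold change 0.00013, standard error 0.04). The list medians were 0.00013 (2 of 5 lower) and −0.04 (9 of 11 lower), beside a median of −0.0027 with 51.0% lower over all genes tested. The extremes were *Cab39l* (−0.07) and *Strada* (0.11), adaptor genes of the complex, and *Mark3* (−0.14), a microtubule affinity regulating kinase, and *Prkaa1* (0.13), an AMPK catalytic subunit. *Mark3* passed with the side as a block (edgeR BH-adjusted *P* = 0.0468).

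The regulators that turn the switch showed small values. Over all genes tested, 51.0% were lower and the median log2 fold change was −0.0027. All 6 PKA subunits had lower fitted values with MCH (median log2 fold change −0.06). Only *Prkar2a*, a regulatory subunit, passed the test, with the replicate block (−0.16, edgeR BH-adjusted *P* = 0.0373), which called 3.98% of all genes. Calcineurin subunits and regulators had a median of −0.05 (6 of 7 lower), with *Rcan2* at −0.13 and *Ppp3ca* at 0.06. The 14-3-3 genes, whose proteins retain phosphorylated Crtc, had a median of −0.03 (6 of 7 lower), with *Ywhaq* at −0.06 and *Ywhah* at 0.02. None of the calcineurin or 14-3-3 genes passed the test without a block, with the replicate block or with the side as a block.

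The class IIa histone deacetylases, the other main substrates of the salt-inducible kinases, had fitted values on both sides of 0. *Hdac5* had 261, 268, 237 and 246 CPM in vehicle replicates 1 to 4 and 232, 219, 212 and 201 CPM in MCH replicates 1 to 4, without overlap. The log2 fold change, −0.23, missed the threshold without a block (edgeR BH-adjusted *P* = 0.216) and passed it with the replicate block (edgeR BH-adjusted *P* = 0.000339). *Hdac9* likewise passed with the replicate block and not without it (−0.28, edgeR BH-adjusted *P* = 8.23e-05). *Hdac4* and *Hdac7* had fitted values in the other direction, 0.21 and 0.12, and *Hdac4* passed with the side as a block (edgeR BH-adjusted *P* = 0.0269). The wells of *Hdac4* did not overlap either, at 97.3 to 102.8 CPM with vehicle and 104.5 to 129.2 CPM with MCH. Those of *Hdac7* and *Hdac9* overlapped. Among all genes tested, the treatments did not overlap in 6.03%.

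Of CREB factors and their acetyltransferases, 1 of 5 was lower and the median log2 fold change was 0.12. *Crem*, which encodes activator and repressor forms of a CREB relative, went from 22.4 ± 3.92 CPM in vehicle-treated to 18.01 ± 1.498 CPM in MCH-treated wells and passed with the replicate block (log2 fold change −0.31, edgeR BH-adjusted *P* = 0.00874). *Creb1* had a log2 fold change of 0.12 (standard error 0.07) and did not pass in these fits.

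Genes known as targets of CREB and CRTC were the list with the lowest median, −0.39, with 8 of 9 tested genes lower. This list was drawn up with results of these wells known, so its direction is not independent evidence. *Fos*, an activity-induced transcription factor, had 66.5, 70.4, 54.6 and 59.2 CPM with vehicle and 36.9, 32.1, 31.9 and 32.6 CPM with MCH (log2 fold change −0.91, edgeR BH-adjusted *P* = 0.00492), and *Nr4a2*, an orphan nuclear receptor, had −0.39 (edgeR BH-adjusted *P* = 0.0249). These were the only list genes called without a block, 2 of 54, beside 0.234% of all genes tested. With the replicate block 7 targets were called, beside 3.98% of all genes tested. The targets added were *Nr4a1* (−1.04), *Nr4a3* (−0.30), *Bdnf* (−0.38), *Per1* (−0.62) and *Dusp1* (−0.44). *Ppargc1a*, a metabolic coactivator gene, had a log2 fold change of 0.031 and *Sst*, the somatostatin gene and a classical CREB target, of −0.12, and neither passed. *Sik1* thus had a log2 fold change between those of *Fos* and *Nr4a2* and close to that of *Per1*.

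**Figure D5:**
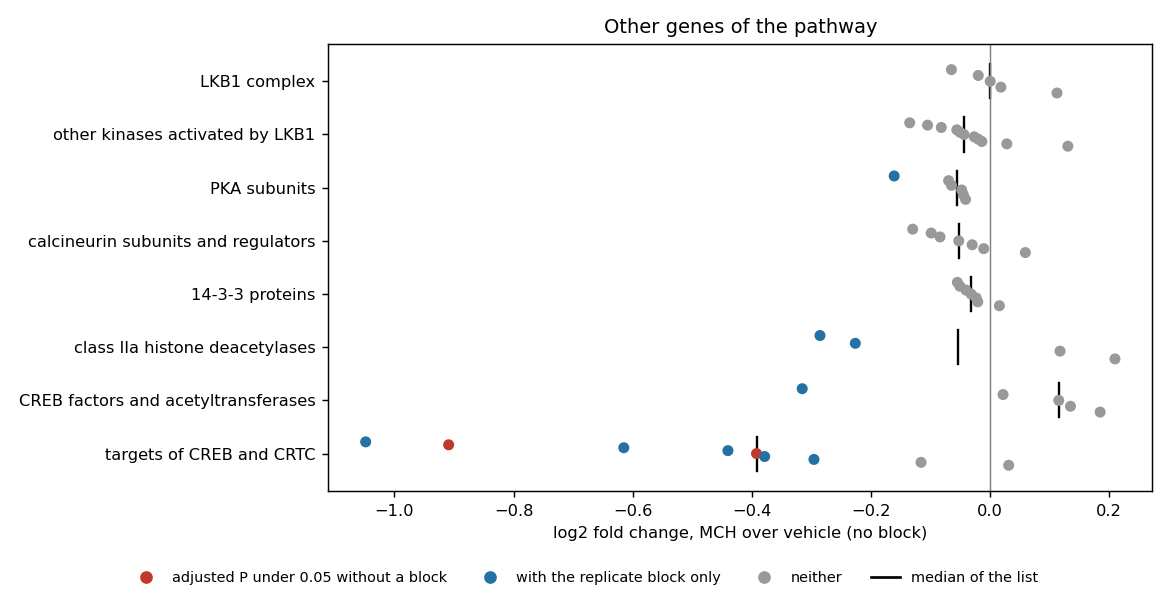
Log2 fold change of MCH over vehicle without a block for the 54 tested genes of the 8 lists, 1 point per gene, with the median of each list as a black bar. Red points passed the test without a block (*Fos* and *Nr4a2*), blue points with the replicate block only, and grey points in neither. Only the targets of CREB and CRTC have a median under −0.1.

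Lastly, the genes whose values over the 8 wells were most like those of *Sik1* were listed, by the root mean square difference of centred log2 CPM. The nearest 5 of the other genes tested were *Siah3* (0.0653), *Arc* (0.0684), *Spry2* (0.0703), *Plekho1* (0.0897) and *Man1a* (0.0965), against a median of 0.349 over all other genes. They were chosen for their likeness, so their values are a description. *Arc*, which encodes a postsynaptic regulator of AMPA receptor endocytosis, had 58.9, 55.0, 54.9 and 56.2 CPM with vehicle and 40.5, 34.7, 36.4 and 37.7 CPM with MCH. *Spry2*, an inhibitor of receptor tyrosine kinase signaling, had 99.9, 108, 90.6 and 94.7 CPM with vehicle and 71.5, 63.7, 70.3 and 66.2 CPM with MCH. In these 5 genes, as in *Sik1*, vehicle replicate 3 was the lowest vehicle-treated well.

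Among the 14961 other genes tested, *Sik3* was at rank 188 with a difference of 0.227 and *Sik2* at rank 505 with 0.257, both under the median. *Crtc1*, *Crtc2* and *Crtc3* were at ranks 8650, 8451 and 8944, with differences of 0.366, 0.363 and 0.371, above the median of all genes. The ranks use the same values as the log2 fold changes above, so they are a description and not a separate result.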

How the data were processed

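By the paper's methods, the authors quantified the reads with salmon within nf-core/rnaseq on GRCm38. They deposited estimated counts per gene, unscaled and with 9.13% of values not integers, and per transcript estimated counts, effective lengths and TPM that the authors' software corrected for length and depth. For 97.7% of genes the gene value equals the sum of its transcripts to within 1 read. Identifiers were matched to GENCODE vM21, which may not be the authors' annotation and named 98.8% of the genes.

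Counts were rounded and tested in R 4.3.3 with edgeR 4.0.16 (TMM factors, filterByExpr with a count minimum of 10 and a total minimum of 15, robust dispersions, quasi-likelihood F test with treatment as the only term). Benjamini–Hochberg adjustment covered the 14962 genes or 33527 transcripts that passed, at a threshold of 0.05. The standard error is the log2 fold change over the square root of F. CPM use the TMM factors. Alternatives were RLE size factors, DESeq2 1.42.0, limma 3.58.1 (voom), no filter, a length offset, a block by replicate number or by side, and each well left out. The script was tested on simulated counts, where both block fits called more unchanged genes than the fit without a block.

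Both treatments carry replicate numbers 1 to 4 in the labels. Deviations from the treatment means correlated at 0.445 to 0.545 between wells of the same number, at 0.475 to 0.521 between other wells of the same side and at −0.548 to −0.438 across sides. Since every same-number pair exceeded 0.1, the replicate number was used as a block, a pairing that rests on these values only. Same-number wells were no more alike than other wells of the same side. The values thus show the sides and do not show pairing by number within a side. *P* values measure the spread between wells, which may be technical. All permutation tests exchanged the wells freely, without regard to side or replicate number. The sides were read from the same counts.

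The members and lists were chosen with earlier results of these data known. Genes named are the 6 members and their transcripts, list genes past the threshold with or without the replicate block, otherwise the lowest and highest of a list, and the 5 genes most like *Sik1*. *Stk11*, *Hdac4*, *Hdac7*, *Creb1*, *Ppargc1a*, *Sst* and *Ppp2r1b* were named after their values were seen.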

Additional observations from a re-analysis of the deposited data

Results flagged for a closer look

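Of the 58 groups of 4 wells checked, 4 held a well that stood far from the other 3, by a rule that chance meets in about 1 in 20 groups. *Sik3* had 177 CPM in MCH replicate 1 and 150 to 153 CPM in the other MCH-treated wells. On the TPM scale the same well had 87.6 TPM of *Sik3*, against 75.2 to 77.0 TPM. The log2 ratio of *Sik1* to *Sik2* was −0.31 in vehicle replicate 3 and −0.15 to −0.13 in the other vehicle-treated wells. The log2 ratio of *Sik1* to *Crtc1* was −2.09 in vehicle replicate 3 and −1.90 to −1.88 in the others. Vehicle replicate 3 had the lowest *Sik1* level of the vehicle-treated wells, 34.8 CPM, and without it the log2 fold change of *Sik1* was −0.67.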

How the results depend on the processing

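*Sik1* kept its direction and its call in all 7 alternatives on 8 wells (adjusted *P* = 1.03e-12 to 0.0445 from edgeR, DESeq2 or limma with Benjamini–Hochberg adjustment), and its log2 fold change was −0.67 to −0.59 with a well left out. The number of genes called was 171 with DESeq2, 7 with the length offset, 596 with the replicate block, 668 with the side as a block and 4 to 29 with a well left out, lowest without vehicle replicate 4. For the members it was 2, 3 and 0 to 1 with the replicate block, the side and a well left out. The replicate block called *Sik3* (−0.20), and the side *Sik3* (−0.19) and *Sik2* (−0.17), and the replicate block changed no other member's call.

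Leaving out a well turned the direction of *Crtc2* (−0.063 to 0.065), *Crtc3* (−0.038 to 0.089), *Crtc2*-201 (−0.17 to 0.10), *Crtc2*-204 (−0.33 to 0.080), *Crtc2*-208 (−0.18 to 0.17), *Crtc3*-201 (−0.046 to 0.077) and *Sik2*-201 (−0.20 to 0.074). The length offset turned *Crtc2* (0.039), and the blocks turned *Crtc2*-201 (0.0088 with the replicate block, 0.0015 with the side). The side as a block called 6 transcripts, and leaving out a well 0 to 1. The ratios of *Sik1* from TPM to *Sik2* (−0.45), *Crtc2* (−0.66) and *Crtc3* (−0.67) missed the threshold. With a well left out, the differences, not tested there, were −0.53 to −0.38 to *Sik2*, −0.47 to −0.39 to *Sik3*, −0.76 to −0.67 to *Crtc1*, −0.73 to −0.55 to *Crtc2* and −0.76 to −0.59 to *Crtc3*.

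In the lists, the replicate block and the side called 1 and 1 PKA subunits, 2 and 3 histone deacetylases, 1 and 1 CREB factors and 7 and 7 targets. The side also called 1 of the other kinases. Of all genes tested, the replicate block called 3.98% and the side 4.46%. DESeq2 called 1 histone deacetylase and 5 targets, the length offset 1 target, and leaving out a well 1 to 3 targets. The cause of these differences was not tested. RLE size factors and limma voom changed no call of a named result.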
